A study of Mus musculus with 8 samples.

Results

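Transcripts of the translation initiation and elongation factors were measured in whole mouse lenses by microarray. The set held every gene on the MG-U74Av2 array whose probe sets carry a single gene symbol starting with Eif1 to Eif6, Eef1, Eef2, Etf1 or Pabpc, with Eif2s2 and Eif4ebp1 left out. It came to 51 of the 8251 genes with a probe set of 1 symbol, on 72 probe sets, and each gene was followed through its brightest probe set over the 8 arrays. Of the 51 genes, 49 exceeded 50 in mean signal in 1 group or more and were tested. The other two, Eef1g, a subunit of the elongation factor 1 exchange complex, and Eef2k, the kinase that phosphorylates elongation factor 2, stayed under that level in every group.

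Total lens RNA was hybridised from 4 kinds of mice at 10 days of age, with 2 arrays each. Both strains, 129SvJae and C57BL/6J, were represented by wild type mice (WT) and by mice with the gap junction gene α3Cx46 (Gja3) disrupted (KO). The study asked how lens transcripts differ between the strains and what the loss of α3Cx46 does to them, at an age before any opacity is visible. Each RNA was extracted from pooled lenses of both sexes, and the labels do not say whether a group's pools were separate sets of animals. The p-values therefore describe how much these arrays varied, and part or all of that variation may be technical.

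As background, translation in the cytosol starts when eIF2 carries the initiator tRNA to the small ribosomal subunit, eIF3 and the eIF4F complex bring that subunit to the capped mRNA, and eIF5 and eIF5B complete the start at the AUG codon. Elongation factor 1 then delivers aminoacyl-tRNA, elongation factor 2 moves the ribosome along, and eRF1, the product of Etf1, releases the finished chain. Lens fiber cells fill themselves with crystallins by this machinery and afterwards lose their nuclei and organelles. Phosphorylation of eIF2 by its kinases and sequestering of the cap-binding protein eIF4E are the standard brakes on it. Many mRNAs of the machinery begin with a cytosine followed by a run of pyrimidines, a 5′ terminal oligopyrimidine start through which mTORC1 controls their translation.

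Of the 51 genes, 41 were found in the RefSeq promoter table (GRCm38.p6), with 56 annotated start sites. A start was scored when a C followed by at least 4 bases of C or T began at the annotated first base or 1 base either side of it. Of the 56 start sites, 5 did so, 8.929%, against 6.322% of the 32851 start sites in the table, and each belonged to a different gene. Those 5 are shown, since they are the members whose annotated 5′ ends carry that feature. Each window runs 5′ to 3′ on the gene's own strand, from 10 bases before the annotated start through its first 20 bases, and the capitals mark the cytosine and its pyrimidine run.
Eef1a1, chr9:78481705-78481734, minus strand: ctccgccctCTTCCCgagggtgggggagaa
Eif2ak4, chr2:118388607-118388636, plus strand: gaggccccgCCCTCagttcggtcacggcgc
Eif2s3x, chrX:94212632-94212661, minus strand: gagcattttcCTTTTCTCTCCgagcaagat
Eif2s3y, chrY:1010585-1010614, plus strand: ggccacagccaCTTCCTTCTTTCgtgagca
Eif3f, chr7:108934405-108934434, plus strand: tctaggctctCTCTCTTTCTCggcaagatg

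Before the factors were compared, the arrays were examined. Signals are MAS5 signals in arbitrary units, set to the same trimmed mean on every array. Between 7637 and 8602 probe sets exceeded 50 on each array, as did 45 to 49 of the tested factors. The number of arrays, 2 a group, limits the precision of every ratio. The Gja3 signal was 1100 and 3381 in 129SvJae WT, 472 and 445 in 129SvJae KO lenses, 1968 and 3274 in C57BL/6J WT lenses and 448 and 519 in C57BL/6J KO lenses, so every KO array lay under every WT array (log2 ratio of KO over WT −2.23, SE 0.29, limma adjusted p = 0.0160). Of 10 lens fiber markers, 6 were matched to probe sets, with single signals of 8822 to 72806, and 3 of 4 lens epithelium markers had signals of 241 to 2099. Summed per array, the lens fiber markers gave 141544 to 247644 and the lens epithelium markers 2073 to 3355. Summed markers of other cell types were lower, 254 to 789 for erythroid, 91.8 to 749 for retina and 144 to 535 for pigmented epithelium. Vessel genes gave 224 to 575, leukocyte genes 205 to 532 and muscle genes 240 to 754. Single genes were not all low, as Hba-a1 reached 641 where the lens epithelium marker Cdh1 ran from 241 to 481. The highest retinal sum came from one 129SvJae WT array, where Sag alone gave 475. The part of these markers in the factors' ratios was not tested. The run record of the first C57BL/6J WT array notes a fluidics error.

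No factor passed the test in any comparison. Limma with Benjamini-Hochberg adjustment over 10078 probe sets called 0 of the 49 tested factors in each of 7 comparisons, and in the 6 comparisons other than the interaction so did the methods' t-test after the same adjustment and the methods' own thresholds. The share of all probe sets called was also small, at 0.367% for the strain difference averaged over genotypes, 0.0695% for the strains in WT lenses and 0.0893% in KO lenses. It was 0.0198% for the KO effect averaged over strains, 0% in 129SvJae lenses and 0.00992% in C57BL/6J lenses, and 0% for the interaction of strain and genotype. The methods' thresholds took in 1.28%, 0.506% and 0.456% of all probe sets for those strain differences and 0.456%, 0.318% and 0.278% for those KO effects. Within 1 strain, limma did not call even the disrupted gene. Gja3 had a limma adjusted p of 0.9998 for the KO effect in 129SvJae lenses and 0.257 in C57BL/6J lenses. The lowest limma adjusted p of all probe sets was 0.9998 for the KO effect in 129SvJae lenses and for the interaction. The 0 calls for the KO effect within a strain and for the interaction therefore cannot show that the factors were unchanged. At an unadjusted p under 0.05, the averaged strain difference took in 3 factors, Eif5b, Pabpc1 and Eif4ebp2, which is 6.12% of the 49 against 6.97% of all probe sets. The strain difference took in 2 factors in WT lenses (Eif3b and Eif5b, background 6.47%) and 2 in KO lenses (Eif4enif1 and Pabpc1, background 3.73%). The averaged KO effect took in 0 (background 3.05%), the KO effect in 129SvJae lenses 1, Eif4enif1 (background 3.12%), that in C57BL/6J lenses 0 (background 2.31%), and the interaction 1, Eif4enif1 again (background 2.11%). These shares lie near or under the background, so the counts are not a result about the factors. They do not cover Eif2s2, left out of the set, which the paper lists as lower in C57BL/6J than in 129SvJae lenses. On these arrays its averaged log2 strain ratio was −1.05 (SE 0.28, limma adjusted p = 0.222).

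The size of the ratios was as modest as the counts. Log2 ratios of C57BL/6J over 129SvJae, averaged over WT and KO lenses, ran from −0.50 to 0.58 with a median of −0.04, and 23 factors were above 0 and 26 below, beside a median of 0.01 over all probe sets. Log2 ratios of KO over WT, averaged over strains, ran from −1.11 to 0.99 with a median of 0.02, beside −0.02 over all probe sets, with 25 above 0 and 24 below. Centring each array on its median made that split 35 and 14, and the strain split 20 and 29. Whole lenses were measured, so fewer cells of a type and less RNA per cell cannot be told apart in any of these ratios. The precision depended on how bright a probe set was. For the 18 factors with a mean signal above 1000, the SE of the averaged log2 ratios was 0.13 to 0.24, and the 95% interval of all 18 lay inside a 1.8-fold change in either direction, for the strain difference and for the KO effect. For the 18 factors between 200 and 1000, this held for 10 in the strain difference and 11 in the KO effect. For the 13 factors under 200, with an SE of 0.35 to 0.66, it held for 1 and 2, so a 1.8-fold change in at least 1 direction lay within the interval of most of them.

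**Figure D1:**
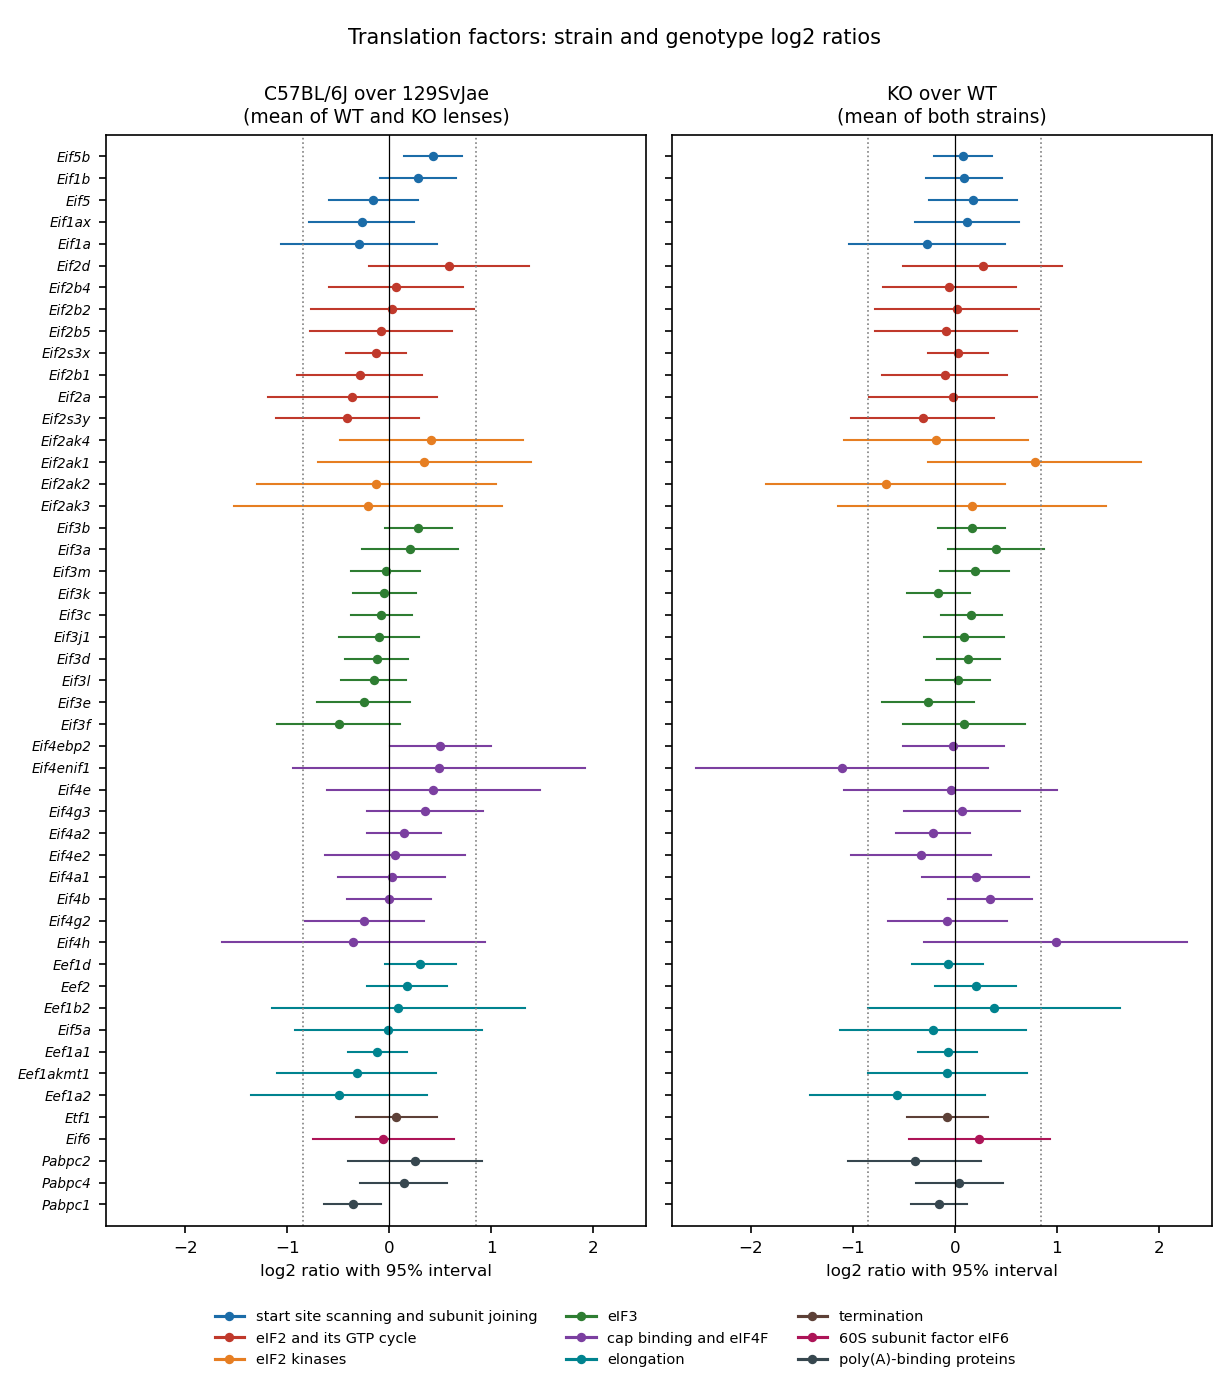
Log2 ratios of the 49 tested factors, C57BL/6J over 129SvJae at left (mean of WT and KO lenses) and KO over WT at right (mean of both strains), with bars for the 95% interval, dotted lines at a 1.8-fold change and colours for the role groups. Points keep between −0.50 and 0.58 at left and −1.11 and 0.99 at right, and 29 and 31 of the 49 intervals lie inside the dotted lines.

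In the strain comparison, the factors of start site selection and subunit joining held the member with the lowest p. Eif5b encodes eIF5B, the GTPase that joins the large subunit to the small one. Its signal was 4419 and 3858 in 129SvJae WT, 4673 and 5045 in 129SvJae KO lenses, 6688 and 5674 in C57BL/6J WT lenses and 5769 and 5989 in C57BL/6J KO lenses. Every C57BL/6J array lay above every 129SvJae array, in WT and in KO lenses alike. The log2 ratio was 0.43 (SE 0.13, unadjusted p = 0.00649, limma adjusted p = 0.357), a 95% interval of 1.10- to 1.64-fold. Scan sessions differed between replicates. Within the session that held the first replicate of all 4 groups the ratio was 0.45, and within the session that held the second replicates of both KO groups the KO lenses gave 0.25. Without the C57BL/6J WT array that had the fluidics error, the averaged ratio was 0.37. Eif1b, a paralog of the start codon factor eIF1, read 947 and 786, 1177 and 848, 1137 and 1148, and 1218 and 1023 in the same order of groups, and the strains overlapped through the KO lenses (log2 ratio 0.28, SE 0.17, limma adjusted p = 0.854). Of the 5 factors of this role, 2 had a ratio above 0 and 3 below, from −0.30 to 0.43.

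Among the poly(A)-binding proteins, which bind the mRNA tail and hold it to eIF4G at the cap, Pabpc1 had the lowest p of the members with a ratio below 0. Pabpc1 read 22927 and 19022 in 129SvJae WT, 19506 and 19671 in 129SvJae KO lenses, 17357 and 16707 in C57BL/6J WT lenses and 14304 and 14919 in C57BL/6J KO lenses. All 4 C57BL/6J arrays lay under all 4 129SvJae arrays, and the replicates of each KO group sat close together. The log2 ratio was −0.36 (SE 0.13, unadjusted p = 0.0154, limma adjusted p = 0.475), a 95% interval of 0.643- to 0.946-fold. Within the first scan session it was −0.42, and in the KO lenses of the shared second-replicate session −0.40, and without the array with the fluidics error the averaged ratio was −0.37. The other two of this role, Pabpc2 and Pabpc4, had ratios above 0, of 0.25 (SE 0.30) and 0.14 (SE 0.20), so the 3 did not share a sign.

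**Figure D2:**
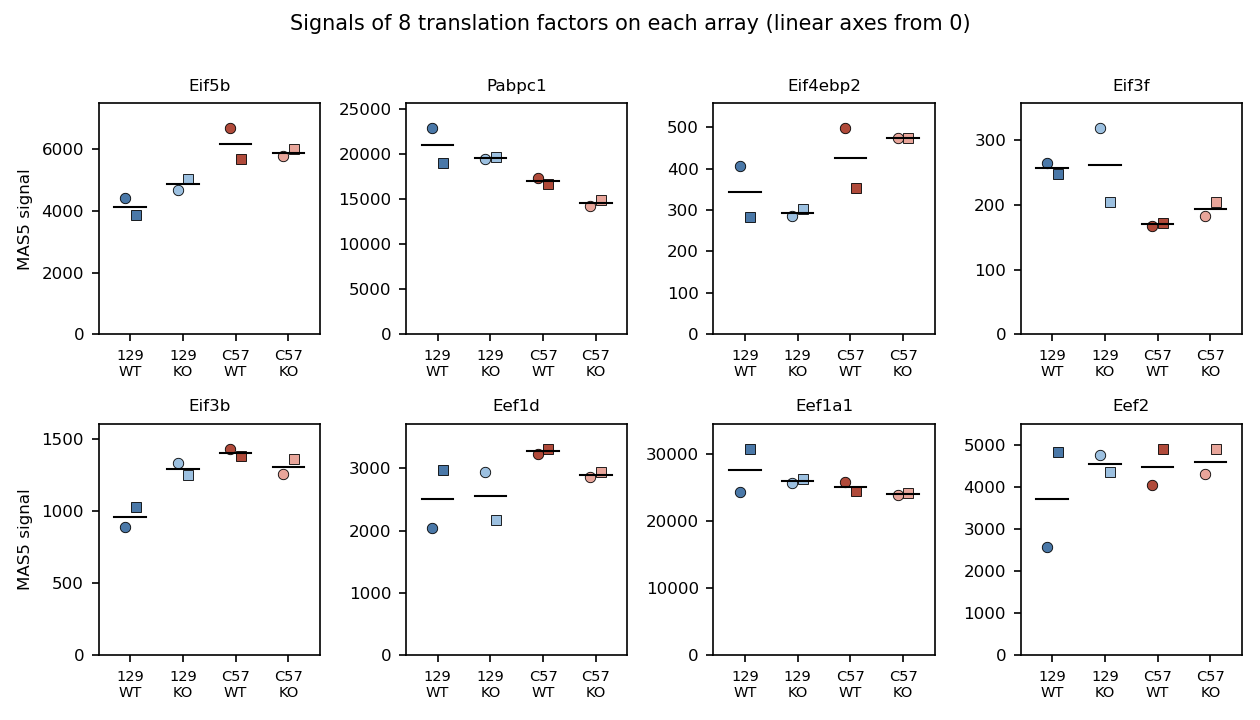
MAS5 signals of 8 factors on each array on linear axes from 0, with circles for the first and squares for the second replicate of each group and bars for the group means. The C57BL/6J arrays of Eif5b lie above those of 129SvJae and the C57BL/6J arrays of Pabpc1 and Eif3f below, while Eef1a1, Eef2, Eef1d, Eif3b and Eif4ebp2 overlap between strains.

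The cap-binding and eIF4F factors numbered 10, of which 8 had a strain ratio above 0, beside 50.9% of all probe sets, with a median of 0.10 and 0 called by limma. That count was 7 with quantile normalization and 6 with the arrays centred on their medians. Eif4ebp2, which encodes a repressor that binds eIF4E and keeps it from eIF4G, read 406 and 282 in 129SvJae WT, 285 and 302 in 129SvJae KO lenses, 498 and 352 in C57BL/6J WT lenses and 474 and 473 in C57BL/6J KO lenses. The KO lenses of the strains were apart and the WT lenses overlapped (averaged log2 ratio 0.50, SE 0.23, limma adjusted p = 0.715). Its second tested probe set gave 0.92 (SE 0.47, limma adjusted p = 0.774). The paralogous helicases of eIF4F, which unwind the mRNA 5′ end, had ratios near 0, 0.02 (SE 0.24) for Eif4a1 and 0.14 (SE 0.17) for Eif4a2. The Eif4a1 probe set is of the _r_at kind, which met fewer of the rules for choosing probes. Eif4b, whose product stimulates those helicases, had 0.00 (SE 0.19), a 95% interval of 0.752- to 1.33-fold.

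Of the 10 eIF3 subunits, 2 had a strain ratio above 0 and 8 below, beside 49.1% of all probe sets below, with a median of −0.09 and 0 called by limma. Quantile normalization made it 4 above and 6 below. Eif3f, a regulatory subunit, read 265 and 248 in 129SvJae WT, 319 and 205 in 129SvJae KO lenses, 168 and 173 in C57BL/6J WT lenses and 183 and 204 in C57BL/6J KO lenses. All C57BL/6J arrays lay under all 129SvJae arrays, with the second replicates of both KO groups almost level (log2 ratio −0.50, SE 0.28, limma adjusted p = 0.829). The ratio was −0.73 within the first scan session, and in the KO lenses of the shared second-replicate session the signals were 204.8 in 129SvJae and 204.2 in C57BL/6J. Eif3b, one of the scaffold subunits, went the other way, with 888 and 1032 in 129SvJae WT, 1335 and 1254 in 129SvJae KO lenses, 1436 and 1381 in C57BL/6J WT lenses and 1256 and 1361 in C57BL/6J KO lenses. Only the 129SvJae WT arrays stood apart, below the other six. The strain ratio was 0.56 in WT lenses (SE 0.21, limma adjusted p = 0.723) and 0.01 in KO lenses (SE 0.21, limma adjusted p = 0.9997), and the interaction of −0.54 (SE 0.30) had a limma adjusted p of 0.9998. Eif3c, another core subunit, had an averaged ratio of −0.08 (SE 0.14).

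The elongation factors and their modifying enzymes numbered 9, of which 7 were tested, with 3 strain ratios above 0, 4 below and 0 called by limma. Eef1a1, the main carrier of aminoacyl-tRNA, read 24324 and 30871 in 129SvJae WT, 25717 and 26313 in 129SvJae KO lenses, 25906 and 24482 in C57BL/6J WT lenses and 23979 and 24219 in C57BL/6J KO lenses. The strains overlapped (log2 ratio −0.12, SE 0.13, limma adjusted p = 0.950, 95% interval 0.755- to 1.13-fold). Eef2, the translocase, read 2585 and 4847, 4759 and 4373, 4059 and 4922, and 4305 and 4915 in the same order, with the first 129SvJae WT array apart from the other seven (log2 ratio 0.17, SE 0.18). Eef1d, a subunit of the exchange complex that reloads elongation factor 1 with GTP, read 2048 and 2969, 2936 and 2179, 3234 and 3320, and 2858 and 2943 (log2 ratio 0.30, SE 0.16, limma adjusted p = 0.796). The C57BL/6J WT arrays of Eef1d lay above the 129SvJae WT arrays, and the KO lenses overlapped. Eef1b2, the catalytic subunit of that complex, also on an _r_at probe set, varied widely between replicates, at 44.3 and 302 in 129SvJae WT and 493 and 163 in C57BL/6J WT, an averaged ratio of 0.09 with an SE of 0.57, which was −0.60 without the first 129SvJae WT array. Eef1a2, the isoform known from muscle and neurons, had −0.49 (SE 0.40), and without the first C57BL/6J KO array −0.20.

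The group named for eIF2 and its GTP cycle gave 3 strain ratios above 0 and 5 below, and the 4 eIF2 kinases 2 and 2, with 0 called by limma in both. That first group was formed by gene symbol. It also took in Eif2a and Eif2d, whose products are neither eIF2 subunits nor factors of its GTP cycle. Eif2s3x, the X-linked copy of the eIF2 γ subunit, read 2898 and 2901 in 129SvJae WT, 2802 and 2501 in 129SvJae KO lenses, 2240 and 2499 in C57BL/6J WT lenses and 2594 and 2820 in C57BL/6J KO lenses. In WT lenses the C57BL/6J arrays lay below those of 129SvJae, and in KO lenses the strains overlapped (averaged log2 ratio −0.13, SE 0.14, limma adjusted p = 0.938). Eif2s3y, its Y-linked copy, had −0.41 (SE 0.32), and without the second C57BL/6J KO array −0.10. The probe set of Eif2s3y is of the kind named _f_at, whose probes can match related sequences. Whether it separates the copies was not tested. Both sexes were pooled, but the paper lists Xist, from the inactive X, as lower in C57BL/6J than in 129SvJae WT lenses and higher in KO lenses. The part of the sex mix in the ratios of Eif2s3x, Eif2s3y and the X-linked Eif1ax was not tested. Eif2d, which can place initiator tRNA without eIF2, read 82.2 and 264, 193 and 305, 273 and 333, and 233 and 305 in the same order of groups. Its averaged strain ratio was 0.58 (SE 0.36, limma adjusted p = 0.854). The first 129SvJae WT array was the lowest of the 8, and without it the ratio was 0.16. Eif6, which keeps the large subunit from joining too early, had −0.06 (SE 0.32).

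Groups that did not overlap were about as frequent among the factors as on the whole array. Across the 4 arrays of each strain, 3 of 49 factors did not overlap (6.12% against a background of 5.57%). Eif5b had C57BL/6J above (background 2.95%), and Eif3f and Pabpc1 had it below (background 2.62%). With 2 arrays against 2, separation came more easily. In WT lenses 16 of 49 were apart (32.7% against 32.3%), 6 with C57BL/6J above (background 15.1%) and 10 below (17.2%). In KO lenses 12 were apart (24.5% against 31.9%), 5 above (17.3%) and 7 below (14.6%). Eif3f, Eif5b and Pabpc1 were apart in the same direction in both genotypes (6.12% against 8.46% of all probe sets), and Eif4enif1 in opposite directions (2.04% against 3.11%).

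Eif4enif1 encodes a shuttling protein that carries eIF4E into the nucleus. It read 127 and 69.9 in 129SvJae WT, 17.7 and 10.2 in 129SvJae KO lenses, 52.8 and 31.0 in C57BL/6J WT lenses and 105 and 35.8 in C57BL/6J KO lenses. Both 129SvJae KO arrays and 2 of the 4 C57BL/6J arrays lay under the level of 50, so these values were close to the bottom of the scale. The strain ratio was −1.22 in WT (SE 0.94) and 2.19 in KO lenses (SE 0.94), and the interaction was 3.41 (SE 1.33, unadjusted p = 0.0230, limma adjusted p = 0.9998). With signals under 50 set to 50 before the logarithm, the interaction came down to 1.41.

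**Figure D3:**
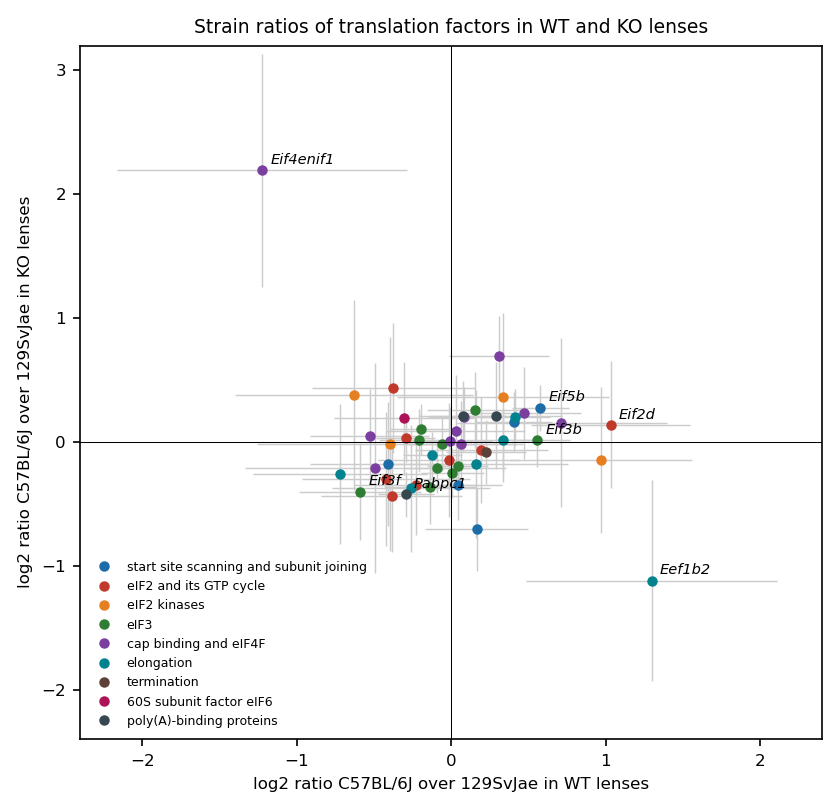
Log2 ratio of C57BL/6J over 129SvJae in WT lenses (horizontal) against that in KO lenses (vertical) for the 49 tested factors, with grey bars of 1 SE and colours for the role groups. Most factors lie within 1 unit of the origin, Eif4enif1 stands at −1.22 and 2.19, Eef1b2 at 1.30 and −1.12, and Eif5b and Pabpc1 keep their sign in both genotypes.

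Over the 4 arrays of each genotype, 0 of 49 factors were apart, beside 2.19% of all probe sets, and the lowest limma adjusted p was 0.998. Of the 10 eIF3 subunits, 8 had a KO over WT ratio above 0, beside 47.3% of all probe sets, with a median of 0.11 and a range of −0.26 to 0.40. The lowest p belonged to Eif3a, the largest scaffold subunit of eIF3, which read 349 and 431 in 129SvJae WT, 468 and 521 in 129SvJae KO lenses, 504 and 368 in C57BL/6J WT lenses and 700 and 496 in C57BL/6J KO lenses. The KO arrays lay above the WT arrays in 129SvJae and overlapped them in C57BL/6J (averaged log2 ratio 0.40, SE 0.22, unadjusted p = 0.0881, 95% interval 0.954- to 1.83-fold). Eif4b read 581 and 747, 740 and 939, 571 and 754, and 770 and 912, with the KO above the WT arrays in C57BL/6J and the second WT array of 129SvJae level with the first KO array (0.35, SE 0.19, limma adjusted p = 0.998).

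The other large KO ratios belonged to dim probe sets. Eif4h, a helper of the eIF4F helicase, had 0.99 (SE 0.60) with signals of 20.8 to 171, and without the second C57BL/6J WT array 0.47. Eif2ak1, the haem-regulated eIF2 kinase, had 0.78 (SE 0.48), and without the first C57BL/6J WT array 0.27. Eef1a2 had −0.56 (SE 0.40), and without the first C57BL/6J KO array −0.28. Eif4enif1 had −1.11 (SE 0.66), and without the second C57BL/6J KO array −0.72. The limma adjusted p of each of these genes was 0.998. Of bright factors, Pabpc1 had −0.16 (SE 0.13), Eef1a1 −0.07 (SE 0.13) and Eif5b 0.08 (SE 0.13), with 95% intervals of 0.740- to 1.09-fold, 0.780- to 1.16-fold and 0.869- to 1.29-fold. For each of them a change of 1.8-fold in either direction lay outside the interval.

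Within 1 strain, KO and WT arrays were apart for 13 of 49 factors in 129SvJae (26.5% against 29.8% of all probe sets) and for 12 in C57BL/6J (24.5% against 27.7%). In both strains and the same direction 0 were apart, beside 4.59% of all probe sets, and in opposite directions 2 were, Eif2s3x and Eif3b (4.08% against 3.72%). Eif2s3x was apart with KO below WT in 129SvJae (log2 ratio −0.13, SE 0.19) and above in C57BL/6J (0.19, SE 0.19). Eif3b was apart with KO above WT in 129SvJae (0.43, SE 0.21) and below in C57BL/6J (−0.11, SE 0.21). The interactions did not pass limma for either gene, with an adjusted p of 0.9998 for both. Eif1ax, the X-linked gene of the scanning factor eIF1A, had 0.56 in 129SvJae (SE 0.33) and −0.32 in C57BL/6J (SE 0.33). Its interaction of −0.87 (SE 0.47) had a limma adjusted p of 0.9998. The 129SvJae arrays of Eif1ax read 1053 and 1421 in WT and 1259 and 2568 in KO lenses. Within the first scan session its 129SvJae ratio was 0.26. On its second tested probe set the ratios were −0.01 in 129SvJae and −0.37 in C57BL/6J. Eef1b2 had the second lowest interaction p, with a log2 interaction of −2.42 (SE 1.15) on replicates that differed by up to 2.77 on the log2 scale.

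Replicates of the factors lay closer together than those of the array at large. The median absolute log2 difference between the 2 arrays of a group was 0.32 in 129SvJae WT, 0.43 in 129SvJae KO lenses, 0.40 in C57BL/6J WT lenses and 0.25 in C57BL/6J KO lenses for the factors. Over all probe sets it was 0.54, 0.52, 0.56 and 0.49. The factors were also brighter, with a median signal of 301.7 to 427.8 per array against 85.1 to 114.4 over all probe sets. Probe sets of like signal were not compared, so the closer replicates are not shown to be particular to the factors.

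Several factors were represented more than once, and their probe sets did not always give the same ratio. There were 12 genes with at least 2 tested probe sets, and 7 of the 15 further probe sets had the opposite sign of the brightest one for the averaged strain difference. Etf1 had 5. The brightest, 96754_s_at, read 3448 and 3681 in 129SvJae WT, 3680 and 3851 in 129SvJae KO lenses, 5778 and 2989 in C57BL/6J WT lenses and 3673 and 3442 in C57BL/6J KO lenses, and gave a strain ratio of 0.07 (SE 0.18). The 5778 is on the array with the fluidics error, and without that array the ratio was −0.17. Probe set 98608_at of Etf1 read 1798 and 1678, 1664 and 1751, 1144 and 1295, and 1297 and 1194, with all C57BL/6J arrays below all 129SvJae arrays (−0.48, SE 0.15, unadjusted p = 0.00554, limma adjusted p = 0.331). Probe set 160451_at separated the strains in the same way, with −0.42 (SE 0.16, limma adjusted p = 0.528), while 96755_at and 161344_r_at of Etf1 overlapped, with −0.07 (SE 0.22) and 0.22 (SE 0.47). Which of these probe sets reports the Etf1 transcript best was not tested.

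The second probe set of Eif5b, 98141_at, read 171 and 225 in 129SvJae WT, 155 and 326 in 129SvJae KO lenses, 433 and 336 in C57BL/6J WT lenses and 93.3 and 162 in C57BL/6J KO lenses. It set the C57BL/6J WT arrays above all others, and its averaged strain ratio was 0.04 (SE 0.33), against 0.43 on the bright probe set. Its KO ratio in C57BL/6J lenses was −1.63 (SE 0.47, unadjusted p = 0.00394, limma adjusted p = 0.9999), against −0.07 (SE 0.19) on the bright probe set. For Eif4b the second tested probe set gave −0.56 (SE 0.37) for the averaged KO effect, against 0.35. Those of Eif3b and Eif1ax gave −0.62 (SE 0.85) and −0.19 (SE 0.22), against 0.16 and 0.12. Over all 64 tested probe sets of the factors, 5 had an unadjusted p under 0.05 for the averaged strain difference, beside 6.97% of all probe sets, and 0 were called by limma.

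**Figure D4:**
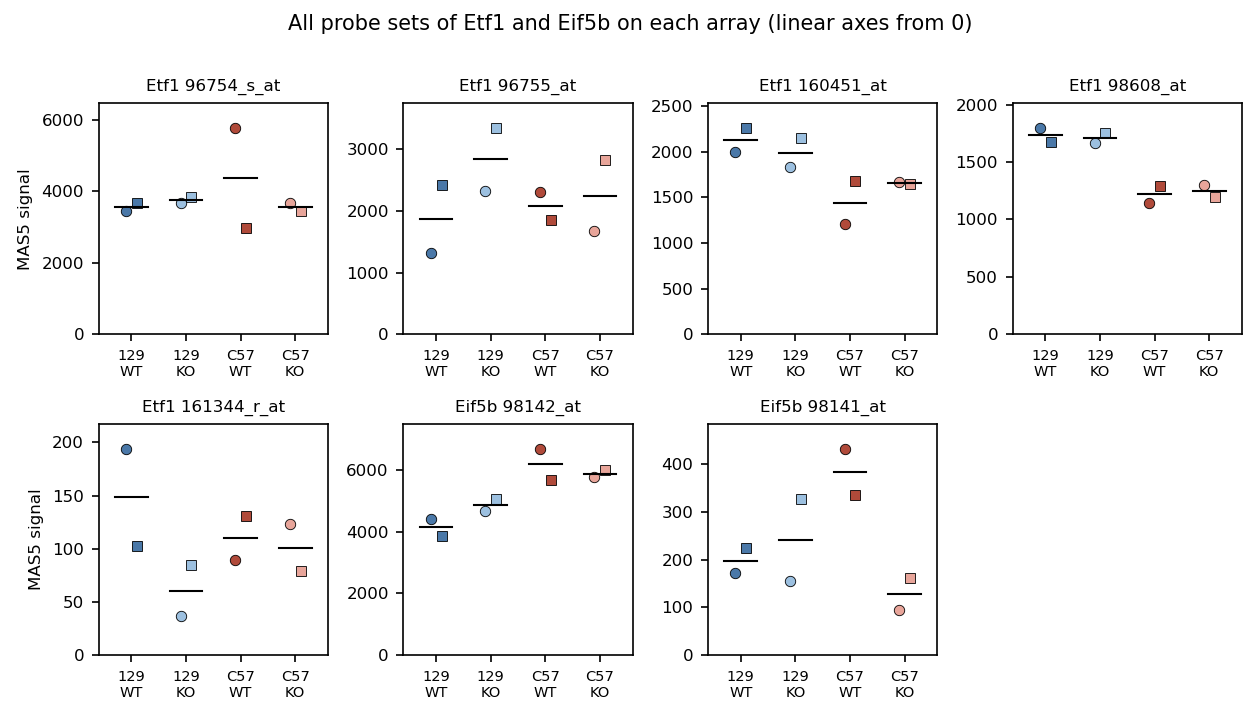
MAS5 signals of the 5 probe sets of Etf1 and both probe sets of Eif5b on each array on linear axes from 0, circles for the first and squares for the second replicate and bars for group means. The C57BL/6J arrays lie below those of 129SvJae on Etf1 98608_at and 160451_at and overlap them on the other 3, and the 2 Eif5b probe sets differ in pattern.

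The members with a pyrimidine start shown above had strain ratios of both signs. Their averaged strain ratios were −0.12 (SE 0.13) for Eef1a1, 0.41 (SE 0.42) for Eif2ak4, the kinase that senses uncharged tRNA, −0.13 (SE 0.14) for Eif2s3x, −0.41 (SE 0.32) for Eif2s3y and −0.50 (SE 0.28) for Eif3f. Their median was −0.13, beside 0.02 for the 35 tested factors in the promoter table without such a start. None of the 5 was called by limma. The grouping rests on annotated first bases, so a factor whose transcripts start at another base may be in the wrong group. It is not a division into factors known to have or to lack such a start. Eif2ak4 has a second annotated start without the run. A further 10 factors, Pabpc1 and Eef1d among them, were not in the promoter table. Whether the medians differ was not tested.

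Genes that act on the factors were taken from 5 lists. Among 9 tested genes of the eIF2 kinase and stress response, 5 strain ratios were above 0 and 4 below. Limma called 1 of the 9, beside 0.367% of all probe sets. At an unadjusted p under 0.05 there were 2 (22.2%), beside 6.97% of all probe sets. Ppp1r15a, which encodes the phosphatase subunit that reverses eIF2 phosphorylation, read 346 and 660 in 129SvJae WT, 747 and 461 in 129SvJae KO lenses, 1090 and 2491 in C57BL/6J WT lenses and 1109 and 1604 in C57BL/6J KO lenses. Every C57BL/6J array lay above every 129SvJae array (log2 ratio 1.49, SE 0.29, limma adjusted p = 0.0496). The call stood at the threshold, and it held under 6 of 19 alternatives with an adjusted p, which ran from 0.0144 to 0.602. It was lost, for example, without the first 129SvJae WT array (0.148), either 129SvJae KO array (0.0643 and 0.262), the second C57BL/6J WT array (0.140) or either C57BL/6J KO array (0.0916 and 0.250). It was also lost with quantile normalization (0.0606), with arrays centred on the median (0.320) and without a trend in the variance prior (0.602). Asns, asparagine synthetase and a target of that pathway, had −0.47 (limma adjusted p = 0.471).

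Among 12 tested genes of mTORC1 and eIF4F control, 6 ratios were above 0 and 6 below, and 0 were called by limma, with 2 (16.7%) at an unadjusted p under 0.05, beside 6.97% of all probe sets. Tsc2, a brake on mTORC1, read 816 and 531 in 129SvJae WT, 676 and 600 in 129SvJae KO lenses, 1418 and 1164 in C57BL/6J WT lenses and 1135 and 1286 in C57BL/6J KO lenses. The strains did not overlap (log2 ratio 0.94, SE 0.19, limma adjusted p = 0.0556), and the adjusted p passed the threshold under 2 of 19 alternatives, without the first 129SvJae WT array (0.0192) and with the replicate number as a block (0.0266). Over all 19 it ran from 0.0192 to 0.572. Pdpk1, the kinase upstream of Akt, had −0.49 (limma adjusted p = 0.509). Ppp1r15a and Tsc2 are on the study's own list of strain differences, which was chosen on these arrays, so their direction here is not independent evidence.

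The 3 remaining lists had 0 genes called by limma for the strain difference. The share of all probe sets at an unadjusted p under 0.05 was 6.97%, as above. Of 16 other factors of cytosolic translation 6 ratios were above 0 and 10 below, with 2 (12.5%) at an unadjusted p under 0.05, Hbs1l, a ribosome rescue factor, at −0.47 (limma adjusted p = 0.455) and Abcf3 at 1.03 (0.510). Of 21 aminoacyl-tRNA synthetases and their scaffold proteins 10 were above 0 and 11 below, with 4 (19%) at an unadjusted p under 0.05, led by Hars at −0.68 (0.486) and Nars at 0.66 (0.585), which load histidine and asparagine. Of 4 mitochondrial translation factors 2 were above 0 and 2 below, with 0 at an unadjusted p under 0.05, and Gfm1 and Tufm, the mitochondrial elongation factors, had 0.70 (0.854) and 0.39 (0.891). For the averaged KO effect limma called 0 genes of all 5 lists, with 1 of 21 synthetases (4.76%) at an unadjusted p under 0.05, beside 3.05% of all probe sets.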

How the data were processed

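Lens RNA of 4 strain and genotype groups was hybridised to 8 arrays, 2 a group. The authors made MAS5 signals with Microarray Suite 5.0, scaled to a target mean of 250, and deposited them as intensity values for 12488 probe sets. Groups and replicate numbers came from the labels.

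Each array was rescaled to a mean of 250 after trimming 2% at each end. The 66 control probe sets were left out, 1 signal at or under 0 was set to 1, and the 10078 probe sets with a group mean above 50 entered 1 fit of log2 signals with limma 3.58.1 in R 4.3.3 (group means, trended variance prior, Benjamini-Hochberg over all of them, threshold 0.05). With 4 residual degrees of freedom and a prior of 9.168, the groups share 1 estimate of the spread. Of 12422 probe sets, 10833 had 1 symbol in the platform annotation, 396 several and 1193 none. The fit was tested on simulated data.

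A gene was given by its brightest probe set. Members given with values were those called, the lowest p in each comparison (8 for the averaged strain difference, 6 for the averaged KO effect, 3 for each other), the brightest of each role, Pabpc1 and paralog pairs, and, of each list, genes called and the 2 with the lowest p. Factors outside that rule were also given, Pabpc2, Pabpc4 and Eif2ak4 to complete a group, and Eef2. The members and lists were chosen with earlier results of these data known. The methods' t-test and thresholds (1.8-fold, a group mean above 50, unadjusted p at most 0.01) were alternatives.

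Same-numbered arrays deviated together from their group means, with r of 0.129 to 0.206 over all probe sets in the 6 pairs of groups. Over the factors alone r ran from −0.104 to 0.527. The main fit did not use this pairing, so the standard errors and p-values of the Results are unpaired. The replicate number was a block in an alternative fit only. Replicate numbers follow the scan sessions of the run records in part. The first replicates shared session 1, the second 129SvJae WT replicate was alone in session 2 and the other second replicates were in session 3.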

Additional observations from a re-analysis of the deposited data

How the results depend on the processing

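The count of factors called was 0 in each of the 7 comparisons and stayed 0 under every alternative that was run, 20 for each strain or KO comparison and 18 for the interaction, over 47 to 51 tested factors. These were 3 other scalings, 3 treatments of low signals, a variance prior without trend, the methods' t-test and thresholds, the mean of a gene's probe sets, each array left out in turn, and 2 blocks. The second 129SvJae WT array was the only one of its scan session. With the session as a block, 129SvJae WT therefore rests on its first array only. With the replicate number as a block, the pairing changed no call among the factors (0 called in every comparison), and Eif5b had the lowest adjusted p of its strain difference there, 0.142, with a range of 0.142 to 0.907 over 19 alternatives. With the scan session as a block, Pabpc1 reached 0.0709, with a range of 0.0709 to 0.981. Over all probe sets the averaged strain difference gave 37 calls, 58 with the replicate block and 86 with the session block. The median log2 strain ratio of the factors stayed between −0.09 and 0.03, and that of the KO effect between −0.07 (mean of a gene's probe sets) and 0.12 (arrays centred on the median). Centring moved the median of all probe sets the most for the KO effect in 129SvJae lenses, by 0.14. Signs of small ratios turned in some alternatives, 7 of 20 for the strain ratio of Eif4b, 5 for Eif4a1 and 4 for Eef1b2 and Eif6. Eif5b, Pabpc1, Eif4ebp2 and Eif3f kept their sign in all 20. Signals under 200 leave a standard error of 0.35 to 0.66 on the log2 scale, so the dim factors are the ones whose ratios are least certain. The cause of these movements was not tested.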
